A study of Caenorhabditis elegans with 2 samples.

Results

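Outside its large clusters of piRNA genes, chromosome IV of *Caenorhabditis elegans* carried 237 of the 2345 peaks in the authors' reproducibility-thresholded list of SNPC-4 binding on genome build ce11. They were taken by position alone, as peaks whose summit lay left of 4.8 Mb, between 7.0 and 13.5 Mb, or right of 17.3 Mb, and they are 237 of 856 peaks on the chromosome. The stretches left out hold the left and the right piRNA cluster. SNPC-4 was mapped by chromatin immunoprecipitation and sequencing (ChIP-seq) in whole young adults of a single strain, OP179, with males and females pooled and chromatin sheared with a sonicator microtip. The strain's genotype is given as unc-119(ed3) III; wgIs179, and it stably expresses SNPC-4 with GFP and FLAG fused to its C-terminus, so every library carries both the unc-119 allele and the tagged protein. There were 2 biological replicates and no other group, and a control experiment was not analysed here. With 1 group no comparison between conditions could be tested, and all values below are descriptions. The files give peaks and not reads, so the sequencing depth is unknown.

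SNPC-4 belongs to SNAPc, a complex that binds a proximal sequence element upstream of the genes of small nuclear RNAs (snRNAs) and recruits RNA polymerase II or III to them. In worms SNAPc also serves the spliced leader genes, whose RNA is joined to the 5' end of many messenger RNAs, and SNPC-4 is known to occupy the clusters where piRNA genes (21U-RNA genes) lie side by side on chromosome IV. Genes of transfer RNAs (tRNAs) are built differently: their polymerase III promoter lies inside the gene, as an A box and a B box. The tRNA gene for selenocysteine is an exception in vertebrates, where an upstream proximal sequence element drives it.

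The sequences below were read from the ce11 genome and show what lies under the strongest peaks of each kind. The first set is the 90 bases before the annotated 5' end of a gene, on the gene's strand. Capitals mark a two-word element, AACC followed after 7 or 8 bases of any kind by GTCGG or GTCCG. Its letters and spacing were read off these same peaks, so its presence in them is not independent evidence.
T26A8.6, snoRNA gene, chrIV:8428740-8428829, minus strand: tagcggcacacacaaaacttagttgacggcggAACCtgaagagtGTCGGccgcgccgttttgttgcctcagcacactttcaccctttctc
F42C5.12, U5-like snRNA gene, chrIV:7316642-7316731, plus strand: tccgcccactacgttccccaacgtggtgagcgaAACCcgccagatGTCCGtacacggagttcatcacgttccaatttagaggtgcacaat
Y69A2AR.36, U5-like snRNA gene, chrIV:2655186-2655275, minus strand: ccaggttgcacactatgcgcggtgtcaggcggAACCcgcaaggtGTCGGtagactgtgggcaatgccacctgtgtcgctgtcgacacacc
smy-1, SmY RNA gene, chrIV:9511840-9511929, minus strand: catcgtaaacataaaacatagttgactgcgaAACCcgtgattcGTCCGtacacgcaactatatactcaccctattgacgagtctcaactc
smy-2, annotated as a snoRNA gene, chrIV:9511467-9511556, minus strand: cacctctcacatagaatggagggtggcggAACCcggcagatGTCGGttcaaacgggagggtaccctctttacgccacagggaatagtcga
K11H12.t1, selenocysteine tRNA gene, chrIV:658091-658180, plus strand: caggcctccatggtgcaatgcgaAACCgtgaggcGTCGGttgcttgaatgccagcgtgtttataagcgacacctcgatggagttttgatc

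Strong peaks also stood on close variants of the element that the exact letters miss, shown here in lower case throughout. Variants as close also lie upstream of the snRNA genes C53B4.9 and C53D6.16, which had no thresholded peak. Variants were not counted, so these examples do not show how often a variant goes with a peak.
Y55F3BR.9, snoRNA gene with the strongest of the 237 peaks, chrIV:867134-867223, minus strand: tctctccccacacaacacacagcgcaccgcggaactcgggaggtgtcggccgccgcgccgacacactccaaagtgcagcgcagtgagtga
F38E11.10, U5-like snRNA gene, chrIV:9444552-9444641, plus strand: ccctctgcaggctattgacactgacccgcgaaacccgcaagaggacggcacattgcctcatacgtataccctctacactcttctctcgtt
sls-2.10, spliced leader gene, chrIV:9130830-9130919, minus strand: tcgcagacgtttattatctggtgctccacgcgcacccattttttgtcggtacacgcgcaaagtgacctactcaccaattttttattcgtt
sls-2.11, spliced leader gene, chrIV:9140325-9140414, plus strand: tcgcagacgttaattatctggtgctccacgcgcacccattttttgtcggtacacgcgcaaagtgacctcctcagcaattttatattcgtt

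A different kind of upstream sequence is shown for 3 snoRNA genes, where capitals mark the exact letters of the tRNA B-box word GTTCGANNC, in which N is any base.
F32E10.10, snoRNA gene, chrIV:7574032-7574121, plus strand: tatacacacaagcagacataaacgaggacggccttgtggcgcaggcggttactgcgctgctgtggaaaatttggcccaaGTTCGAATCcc
F12F6.11, snoRNA gene, chrIV:11549865-11549954, minus strand: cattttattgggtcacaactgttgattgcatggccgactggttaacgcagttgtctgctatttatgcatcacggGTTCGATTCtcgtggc
F11A10.9, snoRNA gene, chrIV:12086619-12086708, plus strand: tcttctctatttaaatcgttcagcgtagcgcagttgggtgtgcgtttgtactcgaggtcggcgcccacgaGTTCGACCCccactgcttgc

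The last set lies 45 bases to each side of summits that have no annotated 5' end near them but do have the two-word element, again in capitals.
Summit at 991236, chrIV:991191-991281, plus strand: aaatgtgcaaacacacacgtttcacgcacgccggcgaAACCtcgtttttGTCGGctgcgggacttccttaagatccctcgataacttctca
Summit at 1763700, chrIV:1763655-1763745, plus strand: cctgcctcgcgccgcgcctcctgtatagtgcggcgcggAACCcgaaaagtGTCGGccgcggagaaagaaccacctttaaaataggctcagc
Summit at 2825909, chrIV:2825864-2825954, minus strand: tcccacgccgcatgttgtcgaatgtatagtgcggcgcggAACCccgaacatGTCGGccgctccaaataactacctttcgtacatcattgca

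The 237 peaks were spread thinly, at 20.6 peaks per Mb over 11.49 Mb, against 50.5 per Mb in the left piRNA cluster, 133.7 in the right one and 17.7 over the other nuclear chromosomes. In all, 82 lay left of the left cluster, 153 between the clusters and 2 in the right end of the chromosome. Among the 2345 strongest entries of each replicate's own list, replicate 1 had 219 in these stretches and replicate 2 had 223, a mean of 221 ± 2.83 (SD, n = 2). Each full window of 500 kb held between 4 and 18 peaks, with a median of 10 over 22 windows. The signal, which is the enrichment value of the authors' caller and has no stated scale, ran from 41.6 to 1847 with a median of 60.4, and 55 of the peaks exceeded 100.

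Genes of structured RNAs took the strong end of that range. A peak counted for a gene class when at most 200 bp separated its summit from the 5' end of such a gene. Genes of snRNAs, spliced leaders, small nucleolar RNAs (snoRNAs) and tRNAs had 49 of the 237 peaks (20.7%, Wilson 95% interval 16.01 to 26.3), and 22.4% and 20.6% of those of replicates 1 and 2. Their median signal was 118 against 55.2 for the other 188 peaks. They made up 31 of the 50 strongest peaks and 18 of the remaining 187, and 16 of the 19 peaks over 200. Protein-coding 5' ends were near 61 peaks (25.7%, 20.6 to 31.7), and 112 peaks (47.3%, 41.0 to 53.6) had no annotated 5' end of any class within 200 bp. The structured RNA, protein-coding and no 5' end shares were much alike on the other nuclear chromosomes, at 22.85%, 22.9% and 47.1%. In the left cluster they were 18.9%, 19.8% and 45.95%, and in the right cluster lower, at 7.87%, 7.68% and 24.4%.

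**Figure D1:**
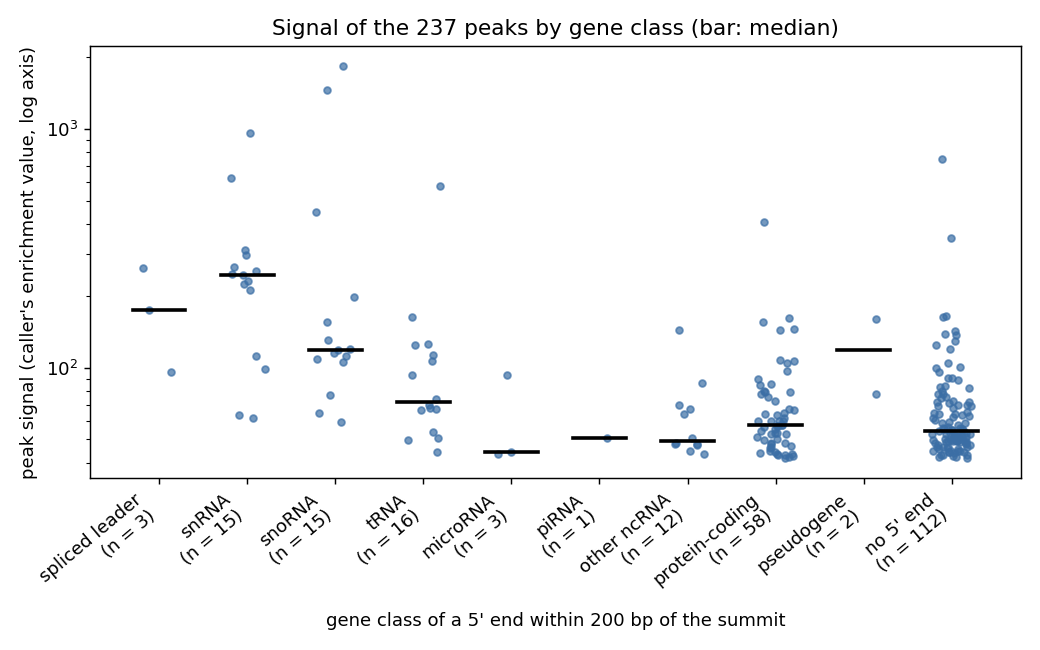
Signal of each of the 237 peaks on a log axis, by the class of gene whose 5' end lay within 200 bp of the summit, each peak counted once; bars are medians. The snRNA peaks have a median of 244.2 and the snoRNA peaks of 118, while the 112 peaks with no 5' end have a median of 54.5 and a single value above 349.7.

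Counted by gene, both of the 2 spliced leader genes had a peak, where the share over all nuclear chromosomes was 58.1%. A peak was found at 16 of 30 tRNA genes (53.3%, 36.1 to 69.8), against 46.4% over all nuclear chromosomes. For snRNA genes it was 10 of 23 (43.5%, 25.6 to 63.2) against 56.6%, and for snoRNA genes 15 of 42 (35.7%, 23.0 to 50.8) against 27.5%. Each of these backgrounds lies inside the interval given, and the genes of the stretches are part of it.

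**Figure D2:**
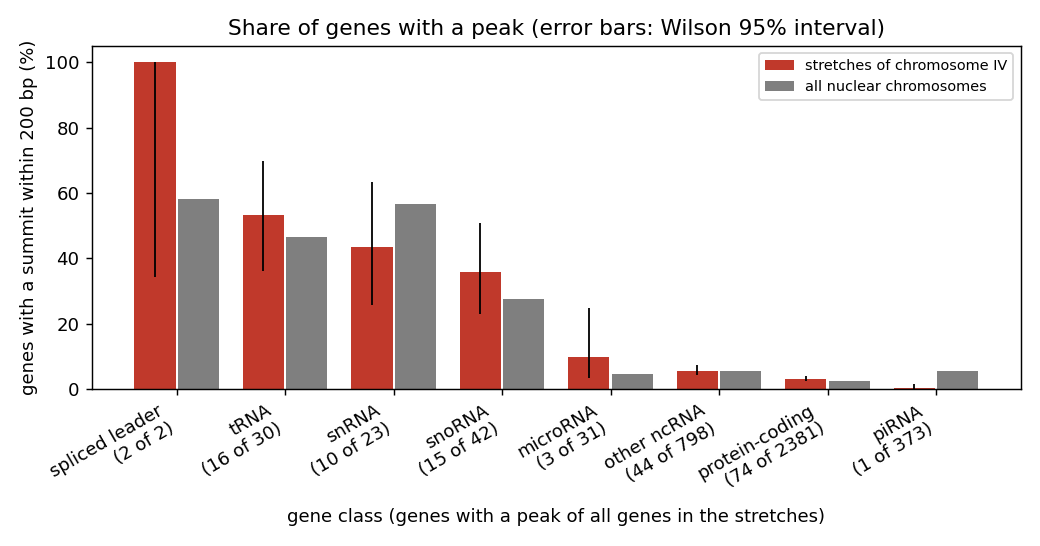
Share of annotated genes of each class with a summit within 200 bp of the 5' end, in the chromosome IV stretches (red, with Wilson 95% intervals) and over all nuclear chromosomes (grey). The classes of structured RNA stand between 35.7% and 100% in the stretches, and protein-coding and piRNA genes at 3.11% and 0.268%.

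Of the 10 snRNA genes with a peak, 9 belonged to 1 family. U5 snRNA sits at the centre of the spliceosome and holds the exons through a conserved loop. Of the 23 snRNA genes of the stretches, 10 contained the letters of that loop, GCCTTTTAC, and 9 of these 10 had a peak. Elsewhere in the nuclear genome the loop was found in 1 further snRNA gene, which also had a peak, so that nearly all annotated U5-like genes lie in these stretches. The 9 genes had signals from 212.2 to 965.5 with a median of 253.8, from 102.5 to 505.8 in replicate 1 and from 78 to 473.4 in replicate 2. Both replicates thus placed every one of them above the median of the 237 peaks in its own list, which was 34.4 in replicate 1 and 27.9 in replicate 2.

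The strongest U5-like gene was F38E11.10 (IV, 9444642 to 9444763, plus strand), between protein-coding genes. The peak reached 965.5, with values of 505.8 and 473.4 in replicates 1 and 2, and its summit was 85 bp upstream. F42C5.12 (7316732 to 7316853) followed with 621, 374.4 in replicate 1 and 224.1 in replicate 2, its summit 35 bp upstream, and Y69A2AR.36 (2655065 to 2655185) with 311.2, 149.9 and 157.9. In 8 of the 9 the gene lies within a protein-coding gene: ZK897.2, ZK897.3 and ZK897.4 stand in unc-31, F07C6.5 in the neighbouring pin-2, and their signals were 247.1, 253.8, 263.2 and 224.5. The genes are near copies of each other. When the sequence around each 5' end was split into 32-base words, fewer than 80% were single-copy in the genome at all 9 genes (26.5% at ZK897.4), so how reads were shared among them is uncertain. The remaining gene, C53B4.9, had no thresholded peak, but the pooled list held an entry of 39.6 there (21.7 in replicate 1 and 13.3 in replicate 2), just under the lowest thresholded signal. It was also the only gene of the 10 with over 80% single-copy words (84.1%).

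The other snRNA genes mostly lacked a peak. U6 snRNA is the spliceosome's catalytic RNA and is made by polymerase III from an upstream promoter. The word AGATTAGCA, which belongs to the conserved core of U6, marked 9 snRNA genes of the stretches and none had a peak (Wilson 95% interval 0 to 29.9%), while 8 of 15 such genes elsewhere had one. The 9 are not separate cases, so the interval is too narrow: K09B11.11 to K09B11.16 lie together in mam-3, and T20D3.12 and T20D3.13 overlap. The pooled list held entries of 20.02 at K09B11.13 and K09B11.14, and of 19.15 at K09B11.15 and K09B11.16. These 9 sit in repeated sequence: the share of single-copy words at them had a median of 25.3%, and ran from 7.06% to 78.2%, against a median of 53.5% at the 15 elsewhere. The part of this repetition in the absence of peaks was not tested. Another 3 snRNA genes that had neither word also lacked a peak.

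SmY RNAs are small RNAs of nematodes associated with trans-splicing. The pair smy-1 and smy-2 lies in tandem in an intron of C33A12.3, and smy-2 is annotated as a snoRNA gene. The peak at smy-2 (9511395 to 9511466) had a signal of 448.7, with 254.6 in replicate 1 and 169.3 in replicate 2. That at smy-1 (9511763 to 9511839) had 244.2, with 88.9 and 140.7. Replicate 1 was higher at smy-2 and replicate 2 at smy-1, and both peaks belong to a single interval of 817 bp. Sequence near smy-1 is single-copy throughout, and 6 of the 9 SmY genes elsewhere also had a peak.

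The spliced leader genes sls-2.10 and sls-2.11, which make SL2-type leaders for genes inside operons, lie in a window from 9.1 to 9.2 Mb that also holds 21 annotated piRNA genes. At sls-2.11 (9140415 to 9140523, plus strand, on the opposite strand to daf-10) the signal was 260.4, with 136.2 and 114.3 in the replicates, and the summit lay 34 bp upstream. At sls-2.10 (9130721 to 9130829, minus strand) it was 174.6, with 98.2 and 79.1, and the summit 37 bp upstream. Their upstream regions are near copies, as the printed sequences and a single-copy share of 58.2% at both genes show, so their values are uncertain. A second summit 166 bp inside sls-2.11 had 95.6, but 72.3 in replicate 1 and 19.6 in replicate 2. The window held 6 of the 237 peaks, and the other 3 lay at the snoRNA gene C46C2.8 (59.3), 255 bp upstream of rpb-12 (71.7), which encodes an RNA polymerase subunit, and 1284 bp from the noncoding gene C46C2.11 (69.7). No piRNA gene of that window had a peak within 200 bp.

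The 2 strongest peaks of all were at snoRNA genes. These RNAs guide chemical modification of ribosomal and other RNAs. Y55F3BR.9 (867056 to 867133, minus strand, opposite to Y55F3BR.2) had a signal of 1847, with 948 in replicate 1 and 942.5 in replicate 2, and a summit 39 bp upstream. T26A8.6 (8428614 to 8428739, minus strand), outside protein-coding genes, had 1458, with 736.5 and 710.4, and a summit 55 bp upstream. At both genes the replicates gave nearly equal values. ZK185.9 with 197.9 and F38E11.14 with 155.4 came next after smy-2. The 15 snoRNA peaks had a median of 118, and 13 of the 15 lay in sequence that is single-copy throughout.

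Either of the words shown above stood before some of the snoRNA genes with a peak. All 3 with the two-word element in the 100 bases upstream (T26A8.6, smy-2 and W03B1.17) had a peak, as did 12 of the 39 without it. A further 3 had the B-box word upstream, shown above, and all 3 had a peak: F12F6.11 with 131 (83.7 and 36.3 in the replicates), F32E10.10 with 120 (72.9 and 56.6) and F11A10.9 with 105.4 (54.8 and 39.6). No tRNA gene is annotated in the 90 bases before any of them. The other 9 snoRNA genes with a peak had neither word upstream in its exact letters. Y55F3BR.9 is among them, but it carries the close variant of the two-word element shown above. D1046.6, C10C6.8 and H09I01.2 are among them too, and they carry close variants of the B-box word upstream. Variants of either word were not counted, at genes with or without a peak. Both words were chosen after the sequences or results were seen, so these counts are not independent evidence. Of the snoRNA genes that lacked a thresholded peak, 9 had an entry in the pooled list and 18 had none in that list.

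At tRNA genes 1 peak stood apart. The selenocysteine tRNA gene K11H12.t1 (658181 to 658266, plus strand, within an intron of K11H12.8) had a signal of 574.8, with 315.3 in replicate 1 and 266.5 in replicate 2. The summit lay 55 bp upstream of the gene, on the two-word element, here with a 7-base gap where every other match under the 237 peaks has 8. The other 15 tRNA peaks reached at most 163.7 (F08G5.t3, a glutamine tRNA gene, with 115.6 and 43.2), with a median of 70.0. K11H12.t1 was higher than all of them in both replicates, whose largest other values were 115.6 and 60.2. It was also the only tRNA gene of the 30 with the element upstream, and it counts only because a 7-base gap is allowed. The element's letters and spacing were read off these peaks, so this match is not independent evidence. The flanks of K11H12.t1 are single-copy throughout.

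Summits at tRNA genes lay on both sides of the 5' end. In 9 of 16 cases they fell downstream of it, with a median position of 23.5 bp downstream over the 16. Within the gene itself lay 6 of the 16. The median for snRNA genes was 24 bp upstream and for snoRNA genes 32 bp upstream, but their summits too lay on both sides. Of the 15 snRNA summits, which belong to 10 genes, 8 were upstream, and the farthest downstream lay at 175 bp. Of the 15 snoRNA summits 10 were upstream. The B-box word was present within 100 bp of 10 of the 16 tRNA summits. Among the tRNA genes themselves 11 of the 14 that contain its exact letters had a peak, against 5 of the 16 that do not. This spelling was chosen after the sequences or results were seen, so the contrast is a description. Its absence does not mean that a gene lacks a B box. By product, the 3 arginine and the 3 glutamate tRNA genes all had a peak, aspartate tRNA genes 3 of 8, and glutamine tRNA genes 1 of 4. Of all tRNA genes, 53.3% had one in the stretches and 46.4% over all nuclear chromosomes. Shares by product or by B-box spelling over all nuclear chromosomes were not computed. With so few genes each, the counts show no preference for a product. tRNA genes are repeated in the genome: 11 of the 16 with a peak had under 80% single-copy words, so the assignment of reads to a copy is uncertain.

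**Figure D3:**
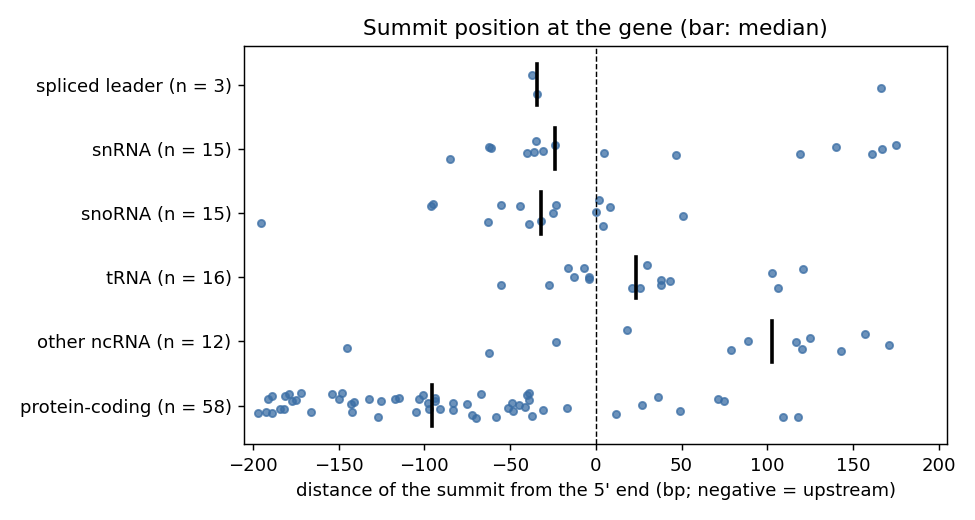
Distance of each summit from the 5' end of its gene in bp, negative upstream, for peaks within 200 bp; bars are medians. Spliced leader, snRNA and snoRNA summits have medians 24 to 34 bp upstream, and tRNA summits 23.5 bp downstream. Summits of each of these classes lie on both sides of the 5' end. Protein-coding summits lie mainly upstream.

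Peaks assigned to microRNA genes or to other noncoding RNA genes were weaker, with medians of 44.2 over 3 peaks and 49.4 over 12. Among the 31 microRNA genes 3 had a peak (9.68%, 3.35 to 24.9), against 4.6% over all nuclear chromosomes. mir-51 (11026013 to 11026112, minus strand), whose family is needed for embryonic development, had 93.3, with 38.8 and 49.9 in the replicates and its summit 32 bp upstream. Its neighbour mir-53 had 43.3, with 3.24 in replicate 1 and 31.5 in replicate 2, so that peak rests on replicate 2. mir-4934 had 44.2. Of 798 other noncoding RNA genes 44 had a peak (5.51%, 4.13 to 7.32), close to the 5.47% found over all nuclear chromosomes. The 12 are what the order of assignment left, since structured RNA, microRNA and protein-coding genes were taken first. Without that order, an other noncoding RNA gene was near 42 peaks, among them 17 of the 50 strongest and 25 of the remaining 187. The strongest peak with such a gene alone was at Y38F2AR.16, with 143.8 (79.7 and 61.2).

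Scattered piRNA genes in these stretches were hardly covered. Of 373 annotated piRNA genes, 1 had a peak (0.268%, 0.0473 to 1.503), against 5.47% over all nuclear chromosomes, most of whose piRNA genes lie in the clusters. It was 21ur-13227, with a signal of 50.5 and 24.4 and 25.4 in the replicates, its summit 23 bp upstream, and the same summit lay 370 bp upstream of the ribosomal protein gene rpl-34. A further 32 of these piRNA genes had an entry in the pooled list without a thresholded peak, and 340 had none in the pooled list. In the right cluster 61.0% of 508 peaks had a piRNA 5' end within 200 bp, and in the left cluster 12.6% of 111.

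The 8-base core of the piRNA promoter motif, CTGTTTCA, was not found within 100 bp of any of the 237 summits on either strand (0 of 237, Wilson 95% interval 0 to 1.595%). It was present at 20.9% of the right cluster's summits, at 2.70% of the left cluster's, at 0.616% on other chromosomes, and in 1.43% of 57182 adjoining windows of 201 bp in the same stretches. The absence of these exact letters says nothing of variants of the motif.

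**Figure D4:**
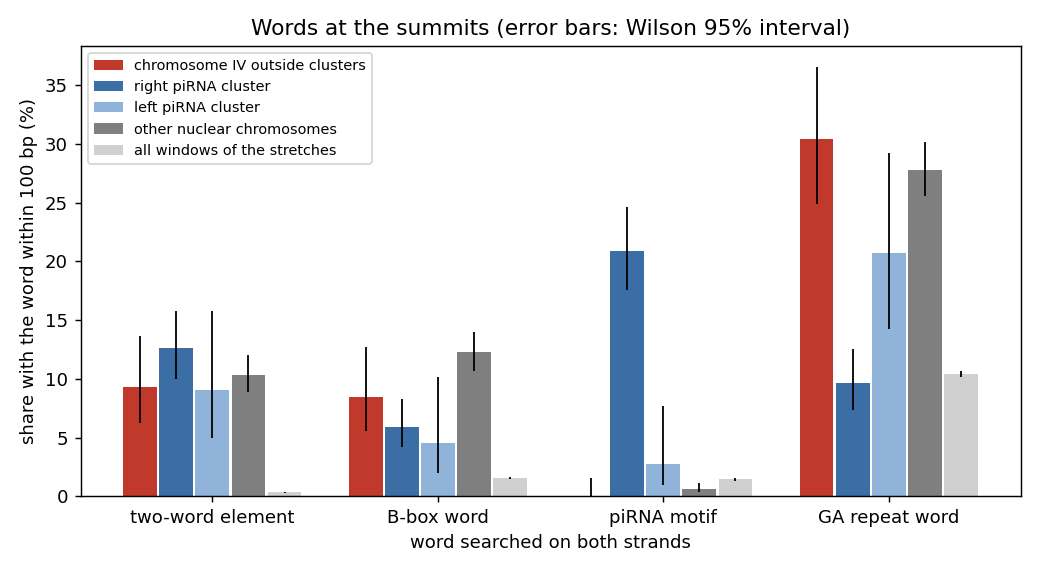
Share of summits with a word within 100 bp on either strand, with Wilson 95% intervals, for the 237 chromosome IV peaks, the piRNA clusters, the other chromosomes, and all windows of 201 bp in the same stretches. The two-word element stands at about the same share in all 4 peak sets, between 9.01% and 12.6%, and the piRNA motif is at 0 in the 237 peaks and at 20.9% in the right cluster.

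The two-word element lay within 100 bp of 22 of the 237 summits (9.28%, 6.21 to 13.6), against 0.325% of the windows. In peaks that played no part in its definition the share was 12.6% in the right cluster, 9.01% in the left and 10.3% on the other chromosomes. Windows were counted in the chromosome IV stretches alone, so those shares have no background of their own. All 7 snRNA genes of the stretches with it in the 100 bases upstream had a peak, and 3 of the 16 without it. The element was read off these same peaks, so the snRNA counts are not independent evidence. Most copies had no peak: of 217 matches in the stretches, 26 lay within 100 bp of a summit (11.98%) and 76 within 100 bp of any entry of the pooled list (35.0%). The B-box word was near 20 summits (8.44%, 5.53 to 12.7), against 1.54% of windows and 12.2% of summits on other chromosomes.

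Protein-coding genes had peaks at 74 of 2381 5' ends in the stretches (3.11%, 2.48 to 3.88), where 2.56% of all nuclear protein-coding genes had one. Within 500 bp the shares were 6.34% and 5.46%. Such summits lay mainly before the gene: of 110 peaks whose nearest coding 5' end was within 500 bp, 94 (85.5%) were upstream. Outside protein-coding genes stood 62.0% of the summits, against 34.4% of the bases, and in coding exons 3.80%, against 25.7% of the bases. The median signal of the 58 peaks assigned to coding genes was 57.5. Besides those at ribosomal protein genes, described next, the strongest were at nol-10 (162.2, with 114.4 and 51.5, 192 bp upstream), which encodes a nucleolar protein, uncp-18 (155.7, with 70.1 and 83.1, 41 bp upstream), Y43B11AR.3 (144.8) and cogc-2 (143.4), which encodes a Golgi complex subunit. The uncp-18 summit also lay 51 bp upstream of ears-2, a glutamyl-tRNA synthetase gene on the other strand.

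Of the gene lists with more than 1 gene in the stretches, ribosomal protein genes most often had a peak within 500 bp, mostly at a distance that the 200 bp window misses. Within 200 bp splicing factor genes had the largest share, at 3 of 8. The emphasis on 500 bp was chosen after the results were seen. Of the 13 in the stretches, 12 had a summit within 500 bp and 2 within 200 bp. Over all nuclear chromosomes the shares were 70.5% and 8.97%. All 12 summits were upstream, by 31 to 443 bp with a median of 289 bp. Many worm messenger RNAs receive their 5' end by trans-splicing, so an annotated 5' end can lie downstream of the start of transcription. Whether trans-splicing bears on the distances of these summits was not tested. The strongest stood before rpl-18A, with 407.6 (232.1 in replicate 1 and 182.8 in replicate 2), in a stretch shared with the divergent gene Y17G9B.5. Next came rpl-15 with 349.7 (217.9 and 151.7) and rps-28 with 138.2 (94.1 and 51.7). The peak at rpl-12 had 104.6 but 60.9 in replicate 1 and 7.22 in replicate 2, so the replicates did not give it alike. None of the 12 exceeded the selenocysteine tRNA peak.

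Other coding groups were covered unevenly. Among 24 histone genes 4 had a peak within 200 bp, his-59 to his-62, through 2 shared summits with signals of 54.5 and 89.9, against 8.54% of histone genes over all nuclear chromosomes. Splicing factor genes had 3 of 8: snrp-3 (64.8), rsp-6 (53.4) and prp-18 (53.1), against 14.1% over all nuclear chromosomes. Translation factors and tRNA synthetases had 2 of 7, ears-2 and sars-1 (46.1), against 8%. None was found within 200 bp of the 41 collagen, 9 major sperm protein, 14 neuropeptide, 88 chemoreceptor or 6 heat shock protein genes, groups for which the shares over all nuclear chromosomes were 0%, 0%, 2.04%, 0.292% and 5.66%. Of factors linked to piRNAs, trcs-1 had a peak of 49.7 at 454 bp upstream, and it is the only one of its list in the stretches. The polymerase III subunit genes rpc-1 and rpc-11 and the TFIIIC gene tftc-1 had none within 500 bp. Over all nuclear chromosomes 2 of 17 genes of each of these lists (11.8%) had a peak within 500 bp.

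Peaks with no 5' end within 200 bp were the largest group and mostly weak, with a median signal of 54.5 over 112 peaks and 13 above 100. In 34 of them the next coding gene started between 200 and 500 bp downstream of the summit, and 56 were more than 1000 bp from any coding 5' end. By position, 67 lay outside protein-coding genes, 34 in introns, 5 in untranslated exons and 6 in coding exons. Among the strongest were the peaks before rpl-15 and rps-28 and one 258 bp upstream of rif-1.1 in the right end of the chromosome (163, with 69.6 and 90.02).

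The two-word element was present at 11 of these 112 summits (9.82%, 5.57 to 16.7). The strongest, at 991236 and 784 bp upstream of egrh-2, had 749.5, with 389.6 in replicate 1 and 350.5 in replicate 2, the fourth highest of the 237. Its element occurs once in the genome and is centred on the summit, and no gene is annotated there. Peaks at 1763700 (164.4, with 103.8 and 65.8, outside genes) and 2825909 (137.3, with 83.8 and 47.5, in an intron of clec-80) carried elements with 75 and 12 exact copies in the genome, preceded by the shared letters TAGTGCGG. These letters, picked after the sequences were seen, lay within 100 bp of 5 of the 237 summits (2.11%), against 0.138% of windows. The remaining 8 peaks with the element had signals between 43.7 and 69.0. In all 11 the value in replicate 1 was the higher.

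The word GAGAGA was within 100 bp of 30.4% of the 237 summits (24.9 to 36.5), 27.8% of those on other chromosomes, 9.65% of those in the right cluster and 10.4% of windows. TGCGTCTC was near 17 summits (7.17%, 4.53 to 11.2), against 1.09% of windows, 8.07% on other chromosomes and 3.15% in the right cluster. By class it was near 9 of 58 coding peaks (15.5%) and 0 of 49 structured RNA peaks (0 to 7.27%). Both words were picked by ranking words of these peaks, so their shares here are descriptions. The bases within 100 bp of the summits had a median GC content of 43.8%, against 33.8% in the right cluster.

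The replicates agreed on the strong peaks and much less on the rest. Entries overlapping by at least 1 bp were present in both replicate lists for 230 of the 237 peaks (97.0%), against 97.3% of all thresholded nuclear peaks. Those lists are long, since they hold background entries too. Of the 237, 108 were among the 2345 strongest entries of both replicates, 53 of replicate 1 only, 50 of replicate 2 only and 26 of neither. At structured RNA genes 10 of 47 peaks differed more than 2-fold between replicates, at the others 70 of 183. None of the 19 peaks over 200 did. Spearman's rank correlation between replicates, a description over peaks that share a library, was 0.769 over the 47 and 0.131 over the 183.

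Replicate 1 gave the higher value at 151 of the 230 peaks, with a median log2 ratio of 0.38. It was 0.64 in the right cluster, 0.49 in the left and 0.20 on the other chromosomes. The widest gaps were at ZK829.7 (38.2 in replicate 1 and 3.09 in replicate 2), cyp-31A3 (46.7 and 3.86) and npp-1 (36.3 and 4.01), and in the other direction at skr-18 (3.41 and 40.9) and mir-53. All 5 had thresholded signals under 50. Gaps nearly as wide were also found at stronger peaks, C39E9.7 (100, with 82.7 and 9.52) and rpl-12 (104.6, with 60.9 and 7.22). Calls with such gaps rest mainly on 1 library each.

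**Figure D5:**
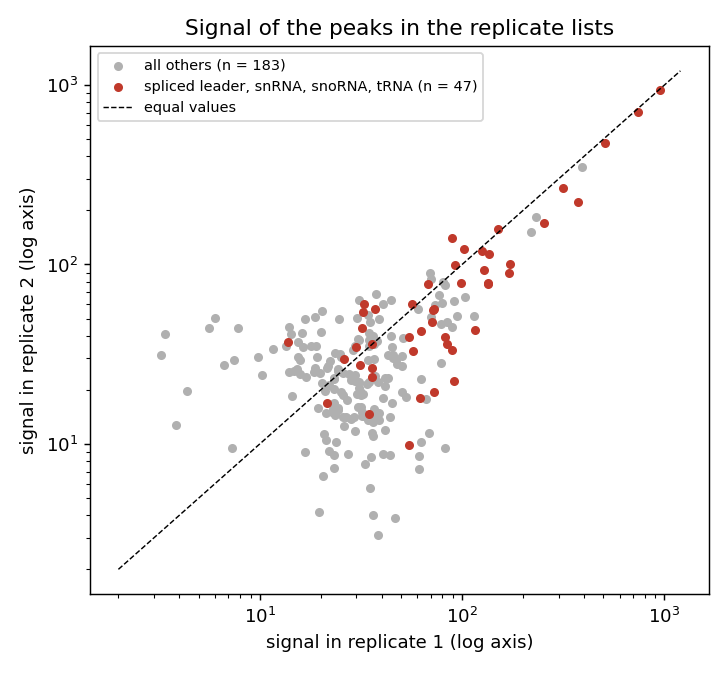
Signal of each peak in the list of replicate 1 against that of replicate 2, both on log axes, for the 230 peaks with an entry in both. Peaks at structured RNA genes (red, 47) lie closer to the line of equal values, while the others (grey, 183) form a cloud below about 100.

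Near the boundaries of the stretches the nearest peaks inside had signals of 43.6 at the left edge of the left cluster, 42.7 at its right edge, 77.3 at the left edge of the right cluster and 84.7 at its right edge. The nearest peaks outside had 42.9, 92.9, 57.5 and 114.3.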

How the data were processed

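ChIP-seq peak lists on ce11 were used as the authors deposited them: one cut at an irreproducible discovery rate threshold, a pooled list and 1 list for each replicate. The deposited signal of each peak is the authors' caller's enrichment, with no stated scale, and the deposited −log10 q-value is constant in the thresholded list. Which caller, aligner and threshold were used is not given in the sources used here. Gene positions came from Ensembl release 115 and symbols from RefSeq. Python 3.11.15, pandas 2.3.3 and numpy 2.4.6 were used, and steps were tested on simulated peaks. A replicate's shares and counts come from its 2345 strongest entries, and its value at a peak from the overlapping entry of its list. Wilson 95% intervals cover counting error only, and depth is unknown.

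The peaks and gene lists were chosen with earlier results of these data known. The two-word element, the B-box spelling, the U5 and U6 words, GAGAGA, TGCGTCTC, TAGTGCGG and the 500 bp emphasis were chosen after the sequences or results were seen, out of about 10 patterns tried, and 2 list definitions were corrected then. Peaks assigned to 1 class were taken first as structured RNA, then microRNA, protein-coding, other noncoding and piRNA. Named genes were the 24 strongest, up to 3 per class and list, up to 5 with no 5' end or the widest replicate gap, those from 9.1 to 9.2 Mb and those at the boundaries.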

Additional observations from a re-analysis of the deposited data

How the results depend on the processing

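The results named here were recomputed under other windows, lists or stretches, each under the settings that bear on it, and a value is given where it moved by more than the SD between replicates (for the overlap share, beyond its Wilson interval, and for the number of peaks, by over 1.5 times). The shares of genes with a peak in classes other than tRNA, those of the gene lists, and the words GAGAGA, TGCGTCTC and TAGTGCGG were not recomputed. With a window of 100 bp the shares of peaks near a structured RNA, protein-coding or no 5' end were 16.5%, 12.2% and 63.7%, and 43.3% of tRNA genes had a peak. With 500 bp they were 21.9%, 46.4% and 29.1%, with 3.8% near a piRNA 5' end and 56.7% of tRNA genes. Keeping peaks at or above the list's median signal left 118 peaks at 10.3 per Mb with a median signal of 94.4, of which 37.3% were near structured RNA genes, 0% near a piRNA gene and 35.6% near no 5' end, 11% had the B-box word and 11.9% the two-word element, and 40% of tRNA genes had a peak. Within 50 bp of the summit the B-box word was at 5.06% and the two-word element at 7.59%. A gap of 8 bases alone gave 8.86%. An overlap of at least 50% of both intervals left 77.6% of peaks in both replicate lists. Without the window from 9.1 to 9.2 Mb the density was 20.3 per Mb, the B-box word at 8.66% and the element at 9.52%. At 100 kb farther from the clusters these were 20.3 per Mb, 8.89% and 9.78%, with 0.444% near a piRNA 5' end. The cause of these shifts was not tested.

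Over the replicates taken singly, the structured RNA share ran from 20.6% to 22.4%, the protein-coding share from 20.2% to 26%, the piRNA share from 0.897% to 0.913%, the share with no 5' end from 45.2% to 52.9%, the share outside coding genes from 57% to 59.8%, the median signal on the replicates' own scale from 30.8 to 36.3, the density from 19.1 to 19.4 per Mb, the piRNA motif from 0% to 0.448%, the B-box word from 9.13% to 9.42% and the two-word element from 8.68% to 8.97%. No paired analysis was possible because there was 1 group. The alternatives for the two-word element were chosen after seeing the data. Depth is unknown, so weak peaks cannot be weighed by reads.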
